A study of Mus musculus with 3 samples.

Results

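The interleukin-1 family was followed here through 9 genes, taken as the rows whose gene symbol equals a member name, and these were 9 of the 33696 features counted. They comprise the receptor antagonist *Il1rn*, the decoy receptor *Il1r2*, the signaling receptor *Il1r1*, the shared accessory chain *Il1rap*, the interleukin-33 receptor *Il1rl1*, and the ligands *Il1a*, *Il1b*, *Il18* and *Il33*. The question was which epithelial, stromal and immune cells sorted from the mouse larynx carry each member, and which epithelial cells carry the antagonist and the decoy receptor.

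Interleukin-1 alpha and interleukin-1 beta bind *Il1r1*, which signals through MyD88 to NF-κB once *Il1rap* has joined the complex. *Il1rn* occupies *Il1r1* without recruiting the accessory chain, and *Il1r2* binds the ligands but lacks a signaling domain, so both restrain the pathway. *Il33* is a nuclear alarmin of barrier and stromal cells that is released on damage and read by *Il1rl1* (ST2) with *Il1rap*, and *Il18* is made as a precursor that caspase-1 cleaves.

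Cells came from Lrig1CreERT2/+; ROSA26CAG-LSL-tdTomato/+ mice, in which tamoxifen lets cells expressing the stem cell marker *Lrig1* switch on the red reporter tdTomato, and were sorted for tdTomato 24 h after recombination. Each of 3 libraries was a pool of 10 larynges, 5 from males and 5 from females, with ages not given in the sources used here. All libraries share this genotype and treatment, so the comparisons are between cell classes within libraries, and the library is the replicate (n = 3). Wild-type and reporter-only cells served to set the sort gates and were not analysed here. Pooling hides differences between animals, and Cre is driven from the *Lrig1* locus itself, so a sorted cell is one with recombination from that locus. No feature counts the tdTomato or Cre transcript, which leaves the purity of the sort unchecked here.

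Libraries 1, 2 and 3 held 18068, 10816 and 31646 barcodes, of which 13222, 7201 and 24119 cells were kept, with medians of 10486, 13976 and 10256 unique molecular identifiers (UMIs) per cell. Between 46 and 165 barcodes were shared by any pair of libraries, and 22 to 103 of them were kept cells in both. Library 3 held the most cells with markers of more than 1 compartment, 3372 against 775 in library 1 and 314 in library 2, and these entered no class. Cells were classed by counts of marker UMIs that do not include the members, into 29267 epithelial, 4302 fibroblast, 1798 muscle satellite, 579 endothelial and 262 immune cells. Within the epithelium, 16660 cells were basal (*Trp63* and *Krt5*), 874 suprabasal squamous (*Krt13* with later squamous genes), 2410 secretory (*Scgb1a1* and *Scgb3a2*), 416 goblet (*Muc5b*) and 1008 ciliated. Another 7626 met none of the gates within the epithelium and are called other epithelial cells. *Epcam* and *Ptprc* are among the genes that the gates count, so their separation was set by the gates and is no check of them. *Epcam* lay at 613, 498 and 674 counts per 1000000 UMIs (CPM) in epithelial cells and at 11.5, 3.87 and 15.8 CPM in fibroblasts. *Ptprc* lay at 1017, 777 and 956 CPM in immune cells and at most 0.205 CPM in epithelial cells. *Epcam* in immune cells reached 30.6, 50.9 and 28.0 CPM, so this epithelial marker was not at 0 in them. *Lrig1*, whose locus drives Cre, lay at 80.4, 89.8 and 91.7 CPM in epithelial cells and 33.6, 45.1 and 52.8 CPM in fibroblasts. In immune cells it lay at 1.37, 4.43 and 7.63 CPM. Whether the immune cells are carry-over of the sort was not tested. Their values describe the 262 sorted cells and not the immune cells of the larynx at large. CPM values below are levels of the UMIs summed over a class in 1 library, and are compared within a gene, not between genes.

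Epithelial cells held 81.1% of the UMIs of all genes over the kept cells, fibroblasts 8.10% and immune cells 0.547%, and the members' shares are read against these. Epithelial cells held 91.3% of the 6817 *Il1rn* UMIs and 86.7% of the 6623 *Il1r2* UMIs, above their share of all UMIs, but 72.4% of 43367 for *Il1r1*, 64.8% of 3070 for *Il18* and 63.8% of 20203 for *Il1rap*, below it. Fibroblasts held 53.7% of the 14318 *Il33* UMIs, 25.5% of the *Il1rap* UMIs and 18.8% of the *Il1r1* UMIs, and epithelial cells 38.2% of the *Il33* UMIs. Immune cells held 96.0% of the 1661 *Il1b* UMIs, 79.5% of the 205 *Il1rl1* UMIs and 67.4% of the 227 *Il1a* UMIs, although they were 262 of 44542 cells. These shares follow class sizes and depths as well as levels, which the CPM values take into account.

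**Figure D1:**
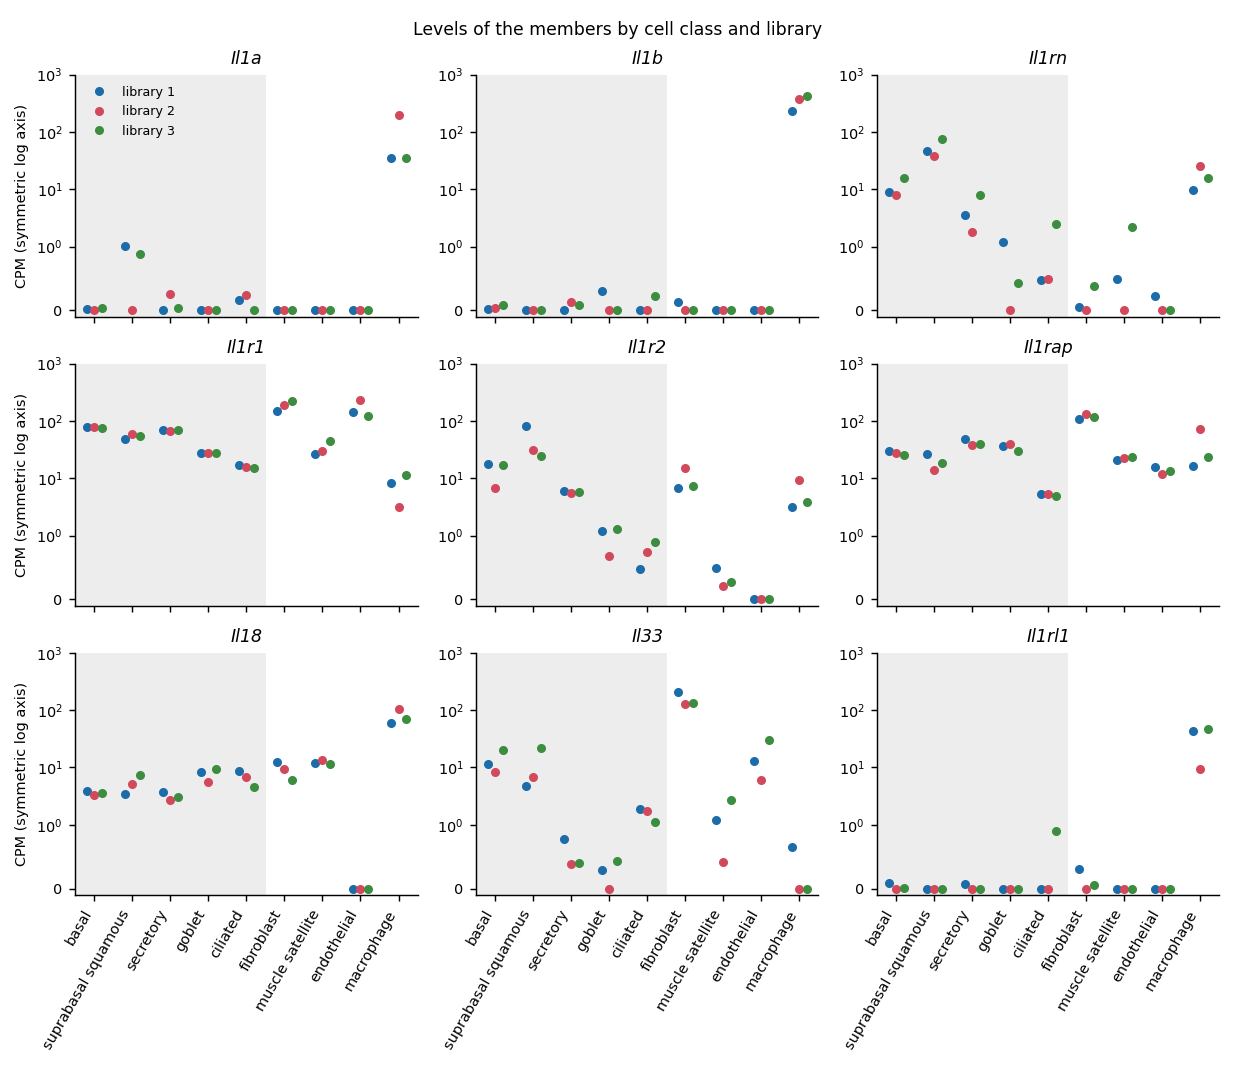
Level of each of the 9 genes in 9 cell classes, as CPM on a symmetric log axis that is linear below 1 CPM; each point is 1 library (n = 3), the grey band marks the epithelial classes, and the macrophage gate stands for the immune cells. *Il1rn* is at 37.2 to 76.0 CPM in suprabasal squamous cells and at most 0.384 CPM in fibroblasts, *Il33* is at 129 to 208 CPM in fibroblasts, and *Il1b* is at 230 to 422 CPM in macrophages.

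Against fibroblasts, 6 members passed the filter on low counts, and 1 was higher and 4 were lower in epithelial cells, where 32.2% and 29.6% of the 18848 genes tested were higher and lower. The member that was higher, *Il1rn*, passed the filter through the epithelial cells, with 1 of 3 fibroblast libraries at its limit, and so had to differ. Against immune cells, 9 members passed, and 2 were higher and 6 lower in epithelial cells, where 26.5% and 17.8% of 17496 genes were. Of the 6, *Il1a*, *Il1b* and *Il1rl1* passed the filter through the immune cells and *Il33*, one of those higher, through the epithelial cells, so nothing is read from these counts and no fold or p of these 4 genes against immune cells is given. The members' values in these comparisons are given gene by gene below, with log2 fold changes, standard errors and Benjamini-Hochberg adjusted p-values from edgeR's quasi-likelihood test over all genes. The median log2 fold change of all genes against immune cells was 0.32.

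*Il1rn*, the antagonist (chromosome 2, 24226865 to 24241506, plus strand, GRCm39), drew most of its UMIs from the epithelium, with its highest level there in suprabasal squamous cells. Its level in these cells was 45.8, 37.2 and 76.0 CPM in libraries 1, 2 and 3, against 9.03, 7.80 and 15.8 CPM in basal cells. The 2 classes did not overlap, with every suprabasal value above every basal value, and library 3 was highest in both. Secretory cells lay at 3.58, 1.81 and 7.78 CPM, goblet cells at 1.19, 0 and 0.431 CPM and ciliated cells at 0.471, 0.493 and 2.49 CPM. Among these gated classes, the order of means was therefore suprabasal squamous, basal and secretory. Secretory cells lay below basal cells in each library, although secretory cells of library 3 all but reached basal cells of library 2. Fibroblasts were at 0.0447, 0 and 0.384 CPM, and the epithelial sum, at 9.14, 7.55 and 18.4 CPM, was above them in every library. No fold is given, since *Il1rn* passed the filter on low counts through the epithelial cells.

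The share of cells with an *Il1rn* UMI gave the same order once each cell was thinned to 5000 UMIs. It was 12.3%, 13% and 28.9% of suprabasal squamous cells (18.1% ± 9.40, SD, n = 3), 3.68%, 2.97% and 5.85% of basal cells and 2.34%, 0.920% and 3.01% of secretory cells. Other epithelial cells had 2.99%, 2.42% and 5.88%, above secretory cells in each library and near basal cells. In fibroblasts, whose gate limits epithelial marker UMIs, the share was 0%, 0% and 0.325%, and the suprabasal and basal shares were above it in each library. In library 2, 0 of 338 fibroblasts allows up to 0.888%, close to the 0.920% of secretory cells there. Muscle satellite cells had 0.469%, 0% and 1.27%. Before thinning, median depth was 25948.5, 30449 and 26291 UMIs in suprabasal squamous cells and 10912, 11003.5 and 9133 UMIs in fibroblasts.

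In immune cells *Il1rn* lay at 42.4, 17.7 and 58.5 CPM, and library 2 of these overlapped the epithelial range (log2 fold change of epithelial over immune cells −1.87, SE 0.44, edgeR adjusted p = 0.00864). This call was lost without library 1 (−1.55, adjusted p = 0.147). It was also lost when macrophage-gated cells, at 9.67, 25.0 and 15.5 CPM, took the place of all immune cells (−0.34, edgeR adjusted p = 0.622), and the neutrophil gate held 74, 0 and 19 of the 93, 8 and 23 immune *Il1rn* UMIs.

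*Il1r2*, the decoy receptor (chromosome 1, 40113239 to 40164391, plus strand), was found in the epithelium and, unlike *Il1rn*, at a like level in fibroblasts. Suprabasal squamous cells held 82.3, 31.0 and 24.8 CPM, basal cells 17.5, 6.92 and 17.0 CPM and secretory cells 6.07, 5.56 and 5.76 CPM. Every suprabasal value lay above every basal value, but library 1 stood far above the other libraries in suprabasal cells, and library 2 was lowest in basal cells. The suprabasal level rests on few cells. Those with 5 or more *Il1r2* UMIs, 27, 6 and 27 cells, held 82.8%, 79.8% and 77.1% of the 406, 89 and 363 suprabasal UMIs. A single suprabasal cell held up to 31, 20 and 65 of them in libraries 1, 2 and 3. Goblet cells, at 1.19, 0.684 and 1.29 CPM, and ciliated cells, at 0.471, 0.740 and 0.905 CPM, were the lowest of these epithelial classes.

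Outside the epithelium, *Il1r2* lay at 6.75, 15.3 and 7.47 CPM in fibroblasts, a range that overlaps the 15.0, 6.44 and 14.2 CPM of all epithelial cells. The difference did not pass the test (log2 fold change 0.37, SE 0.39, edgeR adjusted p = 0.436), and library 2 was the library with more *Il1r2* in fibroblasts than in epithelial cells. Without library 2 the epithelial level was higher (1.02, adjusted p = 0.00795), and without library 1 the value was −0.04. No *Il1r2* UMI was found in endothelial cells, which allows up to 0.666, 9.10 and 8.10 CPM in libraries 1, 2 and 3.

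The highest *Il1r2* levels belonged to the few neutrophil-gated cells, 8, 2 and 4 per library, which held 80, 121 and 31 UMIs, or 994, 4834 and 1418 CPM. *Il1r2* is a known surface protein of neutrophils. The immune sum, at 42.9, 274 and 83.9 CPM, was above the epithelial one in every library (log2 fold change of epithelial over immune cells −3.44, SE 0.64, edgeR adjusted p = 0.00258). With macrophage-gated cells alone, at 3.22, 9.38 and 3.87 CPM, the sign turned and the difference did not pass (1.34, edgeR adjusted p = 0.115).

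Thinned to 5000 UMIs, an *Il1r2* UMI was found in 20%, 9% and 6.17% of suprabasal squamous cells, 5.38%, 3.29% and 5.91% of basal cells and 1.88%, 3.37% and 2.42% of secretory cells. Fibroblasts had 2.07%, 3.55% and 2.14%, endothelial cells 0% in all 3 libraries and muscle satellite cells at most 0.254%. The secretory and fibroblast shares overlapped. Goblet cells had 0% in all 3 libraries, which allows up to 1.82%, 4.62% and 2.54%. The median depth before thinning was 18626, 23312.5 and 17021 UMIs in secretory cells and 7265, 8389 and 5525 UMIs in muscle satellite cells.

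In basal cells *Il1r2* and *Il33* UMIs lay in fewer cells than those of *Il1r1*, which had more UMIs. In library 1, 390, 187 and 2074 of 3371 basal cells held a UMI of *Il1r2*, *Il33* and *Il1r1*. The shares below follow a gene's level too, so they do not by themselves compare concentration. The 1% of basal cells with the most UMIs of a gene held 37.0%, 35.7% and 33.0% of the basal *Il1r2* UMIs and 56.3%, 57.3% and 39.9% of the basal *Il33* UMIs. For *Il1rn* these shares were 23.3%, 26.4% and 19.7%, and for *Il1r1* 6.42%, 5.58% and 6.31%. In fibroblasts, where *Il33* is highest, the top 1% held 20.6%, 19.8% and 18.0% of its UMIs, less than in basal cells, although cells with 5 or more *Il33* UMIs held 76.7%, 68.1% and 61.6% of them in fibroblasts and 60.9%, 53.8% and 57.9% in basal cells. The top 1% of fibroblasts held 66.2%, 64.2% and 64.0% of their *Il1r2* UMIs, that is, in 21, 4 and 19 cells of the 72, 21 and 65 fibroblasts with an *Il1r2* UMI. The 9, 3 and 7 fibroblasts with 5 or more *Il1r2* UMIs held 45.0%, 58.2% and 40.4% of them. A single basal cell held up to 35, 14 and 30 *Il1r2* UMIs in libraries 1, 2 and 3.

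Suprabasal squamous cells, gated on *Krt13* and later squamous genes, were next compared with basal cells. The gated suprabasal cells still held basal keratins: *Krt5* was at 2426, 2253 and 3776 CPM in them and 1176, 1017 and 1806 CPM in basal cells, and *Krt15* at 5896, 7516 and 9978 CPM and 3805, 3726 and 5690 CPM, both higher in the suprabasal class. *Trp63*, the basal transcription factor, was lower there, at 500, 331 and 342 CPM against 890, 765 and 932 CPM. Of the members, 6 passed the filter on low counts, and 3 were higher and 1 lower in suprabasal cells, where 19.4% and 16.6% of 15977 genes were higher and lower. *Il1rn* was higher by a log2 fold change of 2.53 (SE 0.33, edgeR adjusted p = 0.000998) in 3 of 3 libraries. *Il1r2* was higher by 1.96 (SE 0.51, edgeR adjusted p = 0.0187), also in 3 of 3 libraries. The *Il1r2* call was lost without library 1 (1.39, adjusted p = 0.0727) and without library 2 (1.84, adjusted p = 0.0523), and the *Il1rn* call was kept without any one library.

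The antagonist and the decoy receptor differed in which suprabasal cells held them. Of the 196, 101 and 577 suprabasal cells, 153, 71 and 402 still passed the basal gate on *Trp63* and *Krt5*. *Il1rn* was at 70.2, 59.0 and 106 CPM in the cells without basal markers and at 40.3, 28.4 and 65.6 CPM in those with them, and was higher without them in each library. *Il1r2* was at 8.78, 54.2 and 1.06 CPM without basal markers and at 99, 21.5 and 33.0 CPM with them, and libraries 1 and 3 went against library 2, which had 30 cells without basal markers. When suprabasal cells with basal markers were left out, *Il1rn* differed from basal cells by 3.14, and *Il1r2* no longer passed (0.30, edgeR adjusted p = 0.835).

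Of the other tested members, *Il18* and *Il1r1* passed between these layers and *Il1rap* and *Il33* did not. *Il18* lay at 3.45, 5.22 and 7.51 CPM in suprabasal and 3.85, 3.31 and 3.65 CPM in basal cells, overlapping ranges in which library 1 was lower in suprabasal cells (log2 fold change 0.85, SE 0.28, edgeR adjusted p = 0.0457). *Il1r1* was lower by −0.30 (SE 0.10, edgeR adjusted p = 0.0438), with 47.8, 60.5 and 53.8 CPM against 78.1, 77.5 and 75.2 CPM. Its value turned to 0.030 (edgeR adjusted p = 0.910) when suprabasal cells with basal markers were left out. In thinned cells, however, suprabasal cells without basal markers lay at 47.6, 34.5 and 59.4 CPM of *Il1r1*. Thinned basal cells lay at 82.9, 78.1 and 75.9 CPM, so these CPM were lower in the suprabasal cells of each library. The part of edgeR's scaling in the turn to 0.030 was not tested. Both calls were lost when any one library was left out, with adjusted p from 0.0760 to 0.455 for *Il18* and from 0.0665 to 0.301 for *Il1r1*. The *Il18* call was also lost with the stricter gate, without the filter on low counts and with DESeq2 size factors (adjusted p from 0.0530 to 0.0756). *Il1rap* did not pass (−0.24, edgeR adjusted p = 0.409). *Il33* was at 4.66, 6.96 and 21.7 CPM in suprabasal and 11.6, 8.25 and 20.3 CPM in basal cells, lower in suprabasal cells of libraries 1 and 2 and slightly higher in library 3. Its value did not pass (0.09, edgeR adjusted p = 0.909) and ran from −0.68 without library 3 to 0.34 without library 1.

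Along the count of *Krt13*, the keratin of the squamous upper layers, the *Il1rn* share was higher group by group, and the *Il1r2* share was not. Epithelial cells thinned to 5000 UMIs were grouped by 0, 1 to 4, 5 to 19 and 20 to 99 *Krt13* UMIs. The share with an *Il1rn* UMI was higher in each successive group of every library, going from 2.13% to 14.4% in library 1, from 2.02% to 16.0% in library 2 and from 3.90% to 32.0% in library 3. For *Il1r2* the share was 2.72%, 6.35%, 20.9% and 15.9% in library 1, 2.53%, 4.61%, 4.55% and 10.7% in library 2 and 4.20%, 6.48%, 6.40% and 4.82% in library 3. The group with the highest *Il1r2* share thus differed between libraries, and library 3 stayed between 4.20% and 6.48%. In libraries 1 and 2 the *Il1r2* share at 20 to 99 *Krt13* UMIs was well above that at 0, as it was for *Il1rn*. Cells with 100 or more *Krt13* UMIs were too few to place, 8, 1 and 18 per library.

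**Figure D2:**
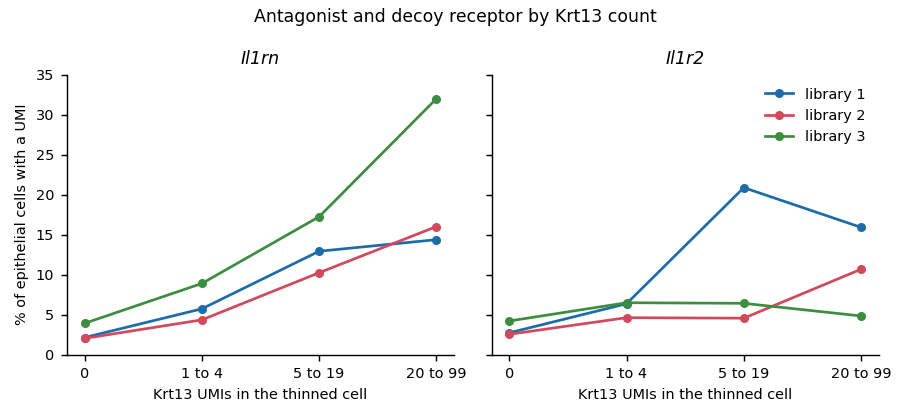
Share of epithelial cells with an *Il1rn* UMI (left) and an *Il1r2* UMI (right), in percent, against the number of *Krt13* UMIs in the same cell after thinning to 5000 UMIs; each line is 1 library. *Il1rn* reaches 14.4%, 16.0% and 32.0% at 20 to 99 *Krt13* UMIs. *Il1r2* peaks at 20.9% in the group with 5 to 19 in library 1, reaches 10.7% at 20 to 99 in library 2 and stays at 4.20% to 6.48% in library 3.

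The same cells seldom held both inhibitors at this depth. Thinned to 5000 UMIs, 0.297%, 0.143% and 0.324% of epithelial cells had a UMI of both. Of 216, 132 and 942 epithelial cells with an *Il1rn* UMI, 8.80%, 5.30% and 5.10% also had an *Il1r2* UMI, against 4.17%, 2.84% and 4.74% of the cells without one. The share was higher with *Il1rn* in 3 of 3 libraries, by a mean of 2.48 percentage points, and the gap was small in library 3. Within suprabasal squamous cells, 5 of 24, 1 of 13 and 2 of 164 cells with *Il1rn* had *Il1r2*, against 34 of 171, 8 of 87 and 33 of 403 without it, so the share was lower with *Il1rn* in libraries 2 and 3 and close to equal in library 1. Within basal cells it was 7.44%, 2.41% and 7.11% with *Il1rn* and 5.31%, 3.31% and 5.84% without it, with library 2, where 2 of 83 cells with *Il1rn* had *Il1r2*, opposite to the others. Within these classes the direction in a library changed with the depth compared. Without thinning, suprabasal cells gave 26.9%, 20.4% and 11.5% with *Il1rn* against 35.9%, 13.5% and 16.4% without it, and basal cells, at 16.2%, 10.3% and 16.3% with *Il1rn*, were higher with it in all 3 libraries. Thinned to 2000 UMIs, basal cells gave 0%, 2.5% and 2.97% against 2.32%, 1.01% and 2.71%. Over all epithelial cells the share was higher with *Il1rn* in each library at each of these depths. No test was made of these shares, since cells of 1 library share their pool.

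Whether *Il1r2* was found more often in cells that held the signaling receptor varied with the depth compared. Thinned to 5000 UMIs, of the epithelial cells with an *Il1r1* UMI, 4.06%, 3.21% and 4.39% had an *Il1r2* UMI, and of those without one 4.43%, 2.80% and 4.90% did. Library 2 was thus higher with *Il1r1* and the others lower. Thinned to 2000 UMIs the shares were 1.86%, 1.09% and 2.40% with *Il1r1* and 2.13%, 0.889% and 2.06% without it, higher with it in libraries 2 and 3. Without thinning they were 9.21%, 8.09% and 10.7% against 7.01%, 5.06% and 7.64%, higher with it in all 3 libraries, where cells also differ in depth. In fibroblasts thinned to 5000 UMIs the shares were 2.69%, 4.22% and 2.39% with *Il1r1* and 1.64%, 2.91% and 1.88% without it, higher with it in each library, but at 2000 UMIs library 1 turned (0.220% against 1.13%).

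Basal cells that carried a UMI of *Il1rn*, *Il1r2* or *Il33* after thinning to 5000 UMIs were described by the genes that differed most in level from basal cells without one, with no test. The 121, 83 and 591 such cells with *Il1rn*, of 345, 300 and 1633 before thinning, had more *Krt13* (mean log2 ratio 1.42 ± 0.22, SD, n = 3), *Krt4* (1.07 ± 0.23) and *Mal* (1.07 ± 0.18), genes of the differentiating squamous epithelium, and also more *Tppp3*, *Igfbp2*, *Lgals7*, *Calml3* and *Lgals3*. They had less *Eya4* (−1.80 ± 0.42), *Sdk1*, *Cadm2* and *Pcdh9*. The cells with *Il1r2*, 177 in library 1, had more *Lgals7* (1.83 ± 0.47), *Igfbp2* (1.80 ± 0.25), *Stmn1* (1.16 ± 0.25) and *Krt13* (1.10 ± 0.78), followed by *Crip1*, *Htra1*, *Sparc* and *Dsc3*. They had less of the secreted host defense genes *Reg3g* (−1.63 ± 0.21) and *Bpifa1* (−1.58 ± 0.79) and less *Krt18* and *Cldn4*. *Krt13*, *Igfbp2* and *Lgals7* stood among the 8 leading genes of both sets of cells, and the ratio of *Krt13* in cells with *Il1r2* ranged from 0.46 in library 3 to 1.98 in library 1. The cells with *Il33*, 99 in library 1, differed in the genes that led on the higher side, with more *St8sia6* (2.01 ± 0.21), *Etv1* (1.78 ± 0.30), *Ly6d* (1.76 ± 0.32), *Col25a1* and the matrix protein gene *Tnc* (1.63 ± 0.24), and less *Gfra1* (−3.35 ± 0.84), *Sult1d1* and *Cyp4b1*. The lower side was largely shared with the cells with *Il1rn*: 6 of the 8 leading lower genes were the same, *Gfra1*, *Sfta3-ps*, *Pcdh9*, *Cadm2*, *Eya4* and *Aox3*.

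Airway and squamous basal cells were compared next, the first with *Nkx2-1* and no *Tmprss11a* UMIs and the second the other way round. Of 6 members that passed the filter, 2 were higher and 3 lower in airway basal cells, where 11.3% and 10.9% of 15509 genes were higher and lower. Nothing is read from this count, since *Il33* was among the lower ones and passed the filter through the squamous basal cells. *Il1rap* and *Il1r1* were higher on the airway side, and *Il33*, *Il1rn* and *Il18* on the squamous side.

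*Il33*, the alarmin (chromosome 19, 29902483 to 29938933, plus strand), was found mainly in the squamous kind. It was at 2.26, 0 and 1.27 CPM in airway basal and at 18.6, 14.1 and 33.6 CPM in squamous basal cells, which did not overlap. In airway basal cells 2 of 3 libraries reached the limit of the filter on low counts, so *Il33* passed it through the squamous basal cells and its fold and p are not given. The share of thinned cells with a UMI was 0.264%, 0% and 0.569% in airway and 5.61%, 4.24% and 9.30% in squamous basal cells. Muscle satellite cells, at 0.704%, 0.394% and 1.27%, were set beside this share as a class with little *Il33*, at median depths before thinning of 7265, 8389 and 5525 UMIs. Immune cells had no *Il33* UMI after thinning, but 0 of 132, 28 and 29 cells allows up to 2.27%, 10.7% and 10.3%, which sets no background in libraries 2 and 3.

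*Il1rn* lay at 3.77, 4.14 and 5.46 CPM in airway and 13.7, 10.1 and 22.2 CPM in squamous basal cells, without overlap (log2 fold change −1.78, SE 0.29, edgeR adjusted p = 0.00421). This call was lost without library 1 (−1.74, adjusted p = 0.0862). *Il18* was lower in airway basal cells, at 2.60, 2.07 and 2.13 CPM against 4.34, 3.67 and 3.99 CPM (−0.84, SE 0.20, edgeR adjusted p = 0.0222). *Il1rap* was higher, at 36.9, 39.3 and 37.8 CPM against 23.0, 21 and 18.4 CPM (0.84, SE 0.11, edgeR adjusted p = 0.00187), and *Il1r1* was slightly higher, at 86.4, 84.7 and 87.9 CPM against 69.9, 71.5 and 66.4 CPM (0.29, SE 0.07, edgeR adjusted p = 0.0275). For these 3 genes the ranges of the basal kinds did not overlap. With the quality limits as the study's supplement words them, genes and UMIs exchanged, which kept 4112, 1482 and 8659 cells, the fit held libraries 1 and 3, with 52 and 278 airway basal cells, since library 2 kept 16. The calls of *Il1rn* (−1.98, edgeR adjusted p = 0.184), *Il1rap* (0.67, edgeR adjusted p = 0.629) and *Il1r1* (0.37, edgeR adjusted p = 0.660) were then lost. Under the limits used here, libraries 1 and 3 alone gave −1.96 for *Il1rn* (adjusted p = 0.00932) and 0.82 for *Il1rap* (adjusted p = 0.0207).

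*Il1r2* was at 7.97, 7.43 and 10.5 CPM in airway and 20.9, 5.45 and 15.7 CPM in squamous basal cells, with library 2 opposite to the others (−0.71, SE 0.43, edgeR adjusted p = 0.293). Without library 2 it passed (−1.0, adjusted p = 0.0313). The *Il18* call was lost without any one library (adjusted p from 0.0802 to 0.163) and the *Il1r1* call without library 1 (0.215) or 2 (0.0848). Both were also lost with cells thinned to 5000 UMIs (*Il18* −0.59, edgeR adjusted p = 0.325, *Il1r1* 0.14, edgeR adjusted p = 0.429), and squamous basal cells were the deeper kind, with medians of 17753.5, 20406 and 16280 UMIs against 15325, 18103.5 and 12959.5.

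**Figure D3:**
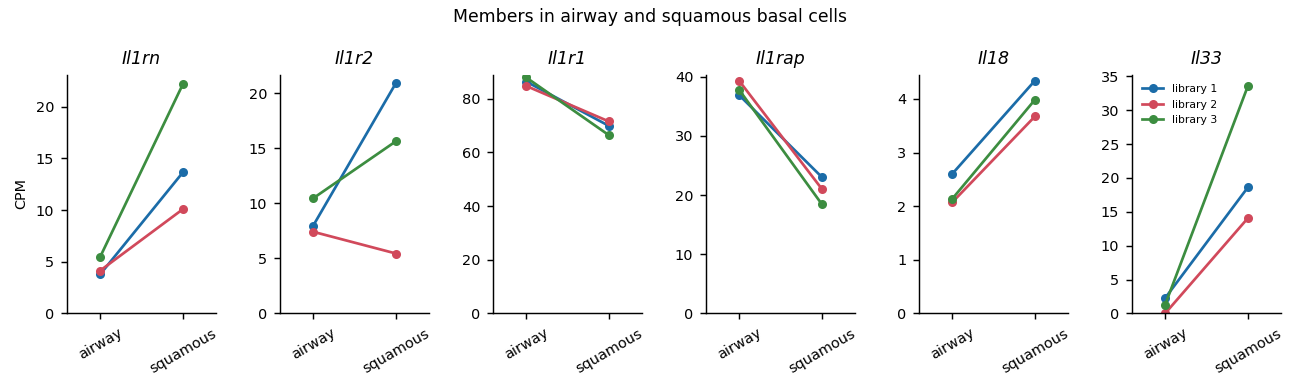
Levels of 6 members in airway and squamous basal cells, as CPM on axes that start at 0; each line joins the values of 1 library. *Il33* goes from at most 2.26 CPM in airway to 14.1 to 33.6 CPM in squamous basal cells, *Il1r1* and *Il1rap* slope the other way in all 3 libraries, and the lines of *Il1r2* cross.

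Secretory cells, gated on *Scgb1a1* and *Scgb3a2*, were compared with basal cells and with suprabasal squamous cells. Against basal cells, 6 members passed the filter, and 1 was higher and 1 lower, where 9.35% and 6.83% of 16358 genes were higher and lower. *Il33* was at 0.778, 0.388 and 0.403 CPM in secretory cells and 11.6, 8.25 and 20.3 CPM in basal cells (log2 fold change −4.59, SE 0.45, edgeR adjusted p = 0.000565). The secretory level rests on 23 UMIs in all. Of the 4418 basal *Il33* UMIs, 3903 lay in squamous basal cells and 58 in airway basal cells. Airway basal cells had a mean of 1.18 CPM, with a range that overlaps the secretory one, at a mean of 0.523 CPM. *Il1rap* was at 47.6, 38.3 and 40.4 CPM and 29.7, 27.5 and 25.3 CPM (0.73, SE 0.12, edgeR adjusted p = 0.00573). Secretory and basal ranges did not overlap for either gene. Both calls were lost under the supplement's limits (*Il33* −3.32, edgeR adjusted p = 0.0828, *Il1rap* 0.21, edgeR adjusted p = 0.819), where library 2, with 17 secretory cells, was left out. Without library 2 under the limits used here, *Il33* gave −4.77 (adjusted p = 0.00686) and *Il1rap* 0.78 (adjusted p = 0.0498).

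The inhibitors were lower in secretory than in basal cells in each library, but without a block these differences did not pass. *Il1r2* gave −1.14 (SE 0.33, edgeR adjusted p = 0.0512), and with the library as a block −1.17 (edgeR adjusted p = 0.00288). *Il1rn* gave −1.10 (SE 0.42, edgeR adjusted p = 0.122), and with the block −1.19 (edgeR adjusted p = 0.000941). Without library 2 *Il1r2* passed (−1.45, adjusted p = 0.00862), and without library 3 *Il1rn* did (−1.45, adjusted p = 0.0256). Basal markers moved with the secretory level of *Il1r2*, which was 11.2, 8.61 and 7.61 CPM in secretory cells that also passed the basal gate and 0.329, 0.674 and 1.88 CPM in those that did not. Against airway basal cells in place of all basal cells, the *Il1rn* value turned to 0.13 and the *Il1rap* difference no longer passed (0.26, edgeR adjusted p = 0.193).

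*Il1r1*, at 71.0, 67.8 and 68.9 CPM, and *Il18*, at 3.73, 2.72 and 3.02 CPM, did not pass against basal cells (−0.04, edgeR adjusted p = 0.784, and −0.07, edgeR adjusted p = 0.860). The SE of these differences was 0.08 and 0.20 on the log2 scale. Of the 675, 334 and 1401 secretory cells, 339, 192 and 897 also passed the basal gate, and *Il1r1* was at 89.7, 81.7 and 75.5 CPM in these and 50.2, 45.5 and 55.1 CPM in the others. With the basal-marked secretory cells left out, *Il1r1* was lower than in basal cells (−0.39, edgeR adjusted p = 0.0141). *Il18* then turned to 0.37 (edgeR adjusted p = 0.352), and to 0.59 (edgeR adjusted p = 0.180) against airway basal cells.

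Against suprabasal squamous cells, 6 members passed the filter, and 2 were higher and 3 lower in secretory cells, where 24.5% and 22.6% of 13684 genes were higher and lower. *Il1rn* (log2 fold change −3.54, SE 0.41, edgeR adjusted p = 0.000264) and *Il1r2* (−3.03, SE 0.45, edgeR adjusted p = 0.000894) were lower. *Il33*, the third, was under the filter's limit in all 3 secretory libraries and passed through the suprabasal cells, so its fold and p are not given. *Il1rap* was higher (1.03, SE 0.22, edgeR adjusted p = 0.00471), as was *Il1r1* (0.32, SE 0.11, edgeR adjusted p = 0.0350). For these 5 genes the secretory and suprabasal values did not overlap. *Il1rap*, for one, was at 47.6, 38.3 and 40.4 CPM in secretory and 26.6, 13.9 and 18.7 CPM in suprabasal cells. The *Il1r1* call was lost without any one library (adjusted p from 0.0574 to 0.274) and by DESeq2 (adjusted p = 0.0759). *Il18* did not pass (−0.86, SE 0.32, edgeR adjusted p = 0.0537), and did without library 1 (−1.25, adjusted p = 0.0376).

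**Figure D4:**
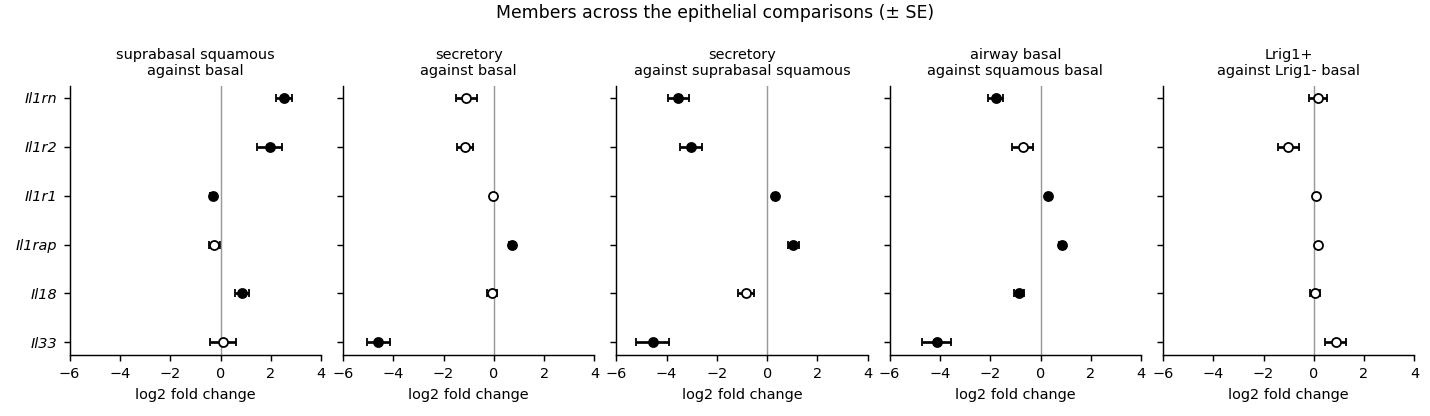
Log2 fold change of 6 members in the 5 comparisons within the epithelium, with bars of 1 SE from edgeR over 3 libraries; filled points have an adjusted p under 0.05 and open points do not. *Il1rn* and *Il1r2* lie to the right in suprabasal against basal cells (2.53 and 1.96) and to the left in secretory against suprabasal cells (−3.54 and −3.03), the *Il33* points of that comparison and of airway against squamous basal cells rest on a gene that passed the filter through the group where it is high, and no point is filled for *Lrig1*+ against *Lrig1*- basal cells.

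Basal cells with at least 1 *Lrig1* UMI were compared with those without, the contrast closest to the study's own. No gene of the 16412 tested, and so no member, passed without a block, so 0% were called in either direction. The same edgeR fit gave 777 genes at an unadjusted p under 0.05. DESeq2, where *Lrig1* itself was not left out, called 124. With the library as a block, which the shared pool of both sums allows, 1855 genes passed, 5% higher and 6.31% lower, and 2 members were among them. *Il1r2* was at 12.6, 5.90 and 13.1 CPM in *Lrig1*+ and 27.7, 9.98 and 26.2 CPM in *Lrig1*- basal cells, lower in 3 of 3 libraries although the ranges overlap (blocked log2 fold change −1.0, edgeR adjusted p = 2.42e-06, unblocked −1.02, edgeR adjusted p = 0.985). *Il33* was at 14.2, 9.29 and 23.0 CPM in *Lrig1*+ and 5.86, 5.13 and 13.8 CPM in *Lrig1*- basal cells, higher in 3 of 3 libraries with overlapping ranges (blocked 0.89, edgeR adjusted p = 5.71e-05, unblocked 0.87, edgeR adjusted p = 1). *Lrig1*+ cells were deeper, with medians of 17270, 20309.5 and 16241 UMIs against 14190, 17386.5 and 11942. With cells thinned to 5000 UMIs the unblocked *Il33* value was 0.48. *Il1r2* in thinned cells was at 11.7, 7.33 and 12.6 CPM in *Lrig1*+ and 23.4, 10.3 and 23.1 CPM in *Lrig1*- basal cells. Under the supplement's limits the unblocked *Il33* value turned to −0.13 (edgeR adjusted p = 1). The part of depth in these differences was not tested. *Il1rn* (0.17), *Il1r1* (0.10), *Il1rap* (0.18) and *Il18* (0.05) did not pass under either fit.

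Among the receptors, *Il1r1* (chromosome 1, 40264174 to 40356417, plus strand), the signaling receptor, was measured in every larger class. Endothelial cells had 144, 233 and 121 CPM and fibroblasts 148, 192 and 219 CPM, ranges that overlap. Basal cells, at 78.1, 77.5 and 75.2 CPM, and secretory cells, at 71.0, 67.8 and 68.9 CPM, lay below them, and goblet cells, at 27.3, 28.0 and 27.6 CPM, and ciliated cells, at 16.8, 16.0 and 15.4 CPM, lower still. Muscle satellite cells had 26.3, 30.5 and 45.2 CPM, which overlaps the goblet range. Within each of these 4 epithelial classes the 3 libraries differed little.

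All epithelial cells together had less *Il1r1* than fibroblasts, 67.5, 70.1 and 70.6 CPM (log2 fold change −1.41, SE 0.14, edgeR adjusted p = 9.53e-05). They had more than immune cells, which were at 31.5, 2.21 and 28.0 CPM (1.43, SE 0.41, edgeR adjusted p = 0.0205), a call that was lost without library 3 (1.48, adjusted p = 0.0609). Of the 69, 1 and 11 immune *Il1r1* UMIs, lymphoid-gated cells, 19, 5 and 5 per library, held 40, 0 and 8, and macrophage-gated cells 13, 1 and 3, so most of the immune *Il1r1* UMIs of libraries 1 and 3 lay in few lymphoid-gated cells. The part of the *Epcam* signal of immune cells in this level was not tested. The share of thinned cells with an *Il1r1* UMI was 27.0%, 26.8% and 28.4% of epithelial cells and 40.8%, 49.1% and 51.7% of fibroblasts, against 0% of 46, 27 and 18 neuroendocrine cells. Median depth before thinning was 14307, 17806 and 13839 UMIs in epithelial and 27123, 27450 and 24806 UMIs in neuroendocrine cells.

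*Il1rap* (chromosome 16, 26400350 to 26548880, plus strand), the accessory chain of the *Il1r1* and *Il1rl1* complexes, was highest in fibroblasts among the classes with at least 20 cells in each library, at 111, 132 and 115 CPM. The 8, 2 and 4 neutrophil-gated cells held 7, 4 and 23 *Il1rap* UMIs, or 87.0, 160 and 1052 CPM, above fibroblasts in libraries 2 and 3. Epithelial cells had 31.8, 28.5 and 27.2 CPM, without overlap (log2 fold change −2.01, SE 0.10, edgeR adjusted p = 2.80e-06). Within the epithelium secretory cells, at 47.6, 38.3 and 40.4 CPM, overlapped goblet cells, at 37.1, 39.7 and 29.7 CPM, and suprabasal squamous cells, at 26.6, 13.9 and 18.7 CPM, overlapped basal cells, while ciliated cells had 5.34, 5.43 and 4.98 CPM. Immune cells spread from 23.7 to 78.8 CPM, and their difference from epithelial cells did not pass (−0.75, SE 0.36, edgeR adjusted p = 0.122), although it did without library 1 (−1.33, adjusted p = 0.00899).

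*Il1rl1* (chromosome 1, 40468730 to 40504575, plus strand), the interleukin-33 receptor, was found mainly in immune cells. Immune cells had 58.4, 44.3 and 38.1 CPM, from 128, 20 and 15 UMIs, and macrophage-gated cells 43.8, 9.38 and 46.5 CPM. Epithelial cells had 6, 1 and 6 UMIs in all, or 0.0535, 0.0106 and 0.0246 CPM, and fibroblasts 7, 0 and 1 UMIs. Immune cells were far above epithelial cells in each library. After thinning, 16.7%, 14.3% and 17.2% of immune cells had an *Il1rl1* UMI and at most 0.0135% of epithelial cells.

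Among the ligands, *Il33* was highest in fibroblasts, at 208, 129 and 136 CPM, where 33.6%, 24.9% and 29.5% of thinned cells had a UMI. The epithelial sum was at 7.50, 5.74 and 16.8 CPM, below fibroblasts in every library (log2 fold change −3.97, SE 0.44, edgeR adjusted p = 0.000161). Endothelial cells had 12.9, 6.06 and 29.7 CPM and immune cells 0.456, 0 and 2.54 CPM, the latter from 1, 0 and 1 UMIs. *Il33* was thus highest in fibroblasts, with lower levels in squamous basal, suprabasal squamous and endothelial cells. Its receptor *Il1rl1* was found mainly in immune cells, so ligand and receptor were highest in different classes.

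*Il18* (chromosome 9, 50466081 to 50493633, plus strand) was low in epithelial cells, at 4.94, 3.93 and 4.37 CPM, and highest in macrophage-gated cells, at 60.6, 106 and 69.7 CPM. The immune sum, at 56.1, 77.5 and 48.3 CPM, stood above the epithelial one without overlap (log2 fold change of epithelial over immune cells −3.85, SE 0.22, edgeR adjusted p = 2.72e-06). Neuroendocrine cells, of which there were 51, 28 and 19, followed with 34.1, 35.2 and 48.2 CPM. Fibroblasts had 12.6, 9.34 and 6.15 CPM and muscle satellite cells 12.2, 13.3 and 11.3 CPM, overlapping ranges. The epithelial level was below that of fibroblasts (−1.08, SE 0.28, edgeR adjusted p = 0.0115), a call lost without library 1 (−0.83, adjusted p = 0.0856) or 2 (−1.03, adjusted p = 0.0779), and under the supplement's limits (−0.68, edgeR adjusted p = 0.116). Endothelial cells, 503, 30 and 46 per library, had no *Il18* UMI, with the same upper limits in CPM as given for *Il1r2*.

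*Il1a* and *Il1b* (chromosome 2, 129140291 to 129152098 and 129206490 to 129213059, both on the minus strand), the agonists of *Il1r1*, were close to the limit of detection in the epithelium. *Il1b* had 3, 3 and 20 UMIs in epithelial cells, or 0.0268, 0.0318 and 0.0820 CPM, against 242, 739 and 1857 CPM in immune cells. Macrophage-gated cells had 230, 369 and 422 CPM, and neutrophil-gated cells held 171, 44 and 618 of the 531, 334 and 730 immune UMIs, so the immune sum of library 3 was mostly neutrophil UMIs. After thinning, 0.0313%, 0% and 0.0607% of epithelial cells had an *Il1b* UMI and 0.122%, 0% and 0% of fibroblasts, so the epithelial share was at the background.

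*Il1a* was at 35.6, 144 and 25.4 CPM in immune cells and 34.8, 194 and 34.9 CPM in macrophage-gated cells, highest in library 2 in both. Epithelial cells had 28, 7 and 33 UMIs, or 0.250, 0.0742 and 0.135 CPM. Suprabasal squamous cells held 5, 0 and 13 of these UMIs, at 1.01, 0 and 0.887 CPM, against 1, 0 and 7 UMIs in basal cells. In fibroblasts no *Il1a* UMI was found, which allows up to 0.134, 0.683 and 0.165 CPM. Neither *Il1a*, *Il1b* nor *Il1rl1* passed the filter on low counts in any comparison without immune cells, so no test of them was made there.

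The rest of the pathway was followed through a list of 69 genes for other ligands and receptors, signaling, processing and response genes. Against fibroblasts, 54 were tested, and 18 were higher and 17 lower in epithelial cells, beside 32.2% and 29.6% of all genes. The largest of these were *Il18r1*, the interleukin-18 receptor (5.31), *Casp1* (3.23) and *Pycard* (2.99), the enzyme and adaptor of the inflammasome, on the epithelial side, and *Gsdmd* (−3.11), the pore-forming gasdermin, *Irak3* (−3.10), a brake on receptor signaling, and *Il1rapl1* (−2.45) on the fibroblast side. Against immune cells, 5 of 54 were higher and 31 lower in epithelial cells, beside 26.5% and 17.8% of all genes, with a list median of −0.95 beside 0.32 over all genes. Those lower included the neutrophil genes *S100a9*, at 3460, 3804 and 1211 CPM in immune and at most 0.714 CPM in epithelial cells, and *S100a8*, at 2222, 3244 and 448 CPM and at most 0.910 CPM, as well as *Nlrp1a*, at 13.3 to 25.5 CPM and at most 0.0369 CPM. These 3 passed the filter through the immune cells, so no fold is given and nothing is read from the count. *Ptges*, which makes prostaglandin E2 (4.08), and *Il1rl2*, the interleukin-36 receptor (1.85), were higher in epithelial cells.

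Within the epithelium, suprabasal squamous cells were set against basal cells first: 11 of 49 tested genes were higher and 3 lower in the suprabasal cells, beside 19.4% and 16.6% of all genes, with a median of 0.24 beside −0.01. The share higher was thus near that of all genes. *Pycard* (1.85, edgeR adjusted p = 0.000295), *Zc3h12a*, an RNase that degrades inflammatory transcripts (1.51), and *Myd88*, the adaptor of *Il1r1* (1.02), were higher, and *Lcn2* (−2.77), *Il18r1* (−2.21) and *Casp4* (−0.70) lower. In secretory against basal cells, 5 of 49 were higher and 4 lower, beside 9.35% and 6.83% of all genes, with *Il18r1* (1.49), *S100a13* (0.91) and *Sigirr*, a receptor that dampens signaling (0.84), leading and *Relb* (−0.56), *Ptges* (−0.51) and *Il1rl2* (−0.40) lower. In secretory against suprabasal cells, 7 of 44 were higher and 14 lower, beside 24.5% and 22.6% of all genes, among them *Il18r1* (3.82) and *Lcn2* (3.42) on one side and *Zc3h12a* (−2.21), *Pycard* (−1.98) and *Nfkb2* (−1.09) on the other. In airway against squamous basal cells, 4 of 46 were higher and 6 lower, beside 11.3% and 10.9% of all genes, with *Il18r1* (3.64, edgeR adjusted p = 9.08e-05) and *Irak2* (0.65) higher and *Zc3h12a* (−1.34), *Pycard* (−1.18) and *Ptges* (−0.87) lower. The secretory against basal and airway against squamous shares were near those of all genes. None of 50 passed between *Lrig1*+ and *Lrig1*- basal cells without a block. In both comparisons of airway with squamous classes, *Il18r1* lay on the airway side and *Pycard* and *Zc3h12a* on the squamous side.

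Some members share their position with other annotated genes. *Il1r1*, *Il1r2* and *Il1rap* each overlap a gene model on the same strand (Gm38070, Gm37347 and Gm60483). *Il1a*, *Il1b*, *Il18* and *Il33* overlap gene models on the other strand only, and *Il1r2* and *Il1rap* overlap such models as well. How reads in the shared stretches were counted was not tested. *Il1rn* and *Il1rl1* overlap no other annotated gene.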

How the data were processed

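Single-cell RNA was measured with the 10x GEM-X 3' v4 chemistry in 3 libraries. The authors aligned reads to GRCm39 with Cell Ranger 8.0.1 and deposited raw UMI counts per gene and barcode, without normalization, with the study's cell limits and doublet removal not applied. Whether intronic reads were counted is not given in the sources used here. Coordinates are from GENCODE, GRCm39, which held 33185 of the 33696 feature identifiers.

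From these counts, barcodes were kept if they had 500 to 8000 detected genes, 1000 to 40000 UMIs and a mitochondrial share of up to 8%. The supplement words these limits with genes and UMIs exchanged, which was run as an alternative. Doublets were removed by the share of simulated doublets among 50 neighbours on 30 components, at 0.4% of a library per 1000 barcodes, 4851 in all. A compartment needed at least 3 UMIs of its own markers and at most 20% as many of any other. Gates within the epithelium used at least 3 UMIs of *Trp63* and of *Krt5* (basal), 20 of *Krt13* with 2 of later genes (suprabasal), 20 of *Scgb1a1* and *Scgb3a2* (secretory) and 5 of *Muc5b* (goblet). UMIs were summed per library and class with at least 20 cells and tested with edgeR 4.0.16 (TMM, filterByExpr, quasi-likelihood, no covariates) in R 4.3.3, Benjamini-Hochberg over all genes, threshold 0.05. DESeq2 1.42.0, other size factors, no filter, stricter gates, doublets kept, thinning and leaving out each library were alternatives. The sums compared within a library share its pool, and their deviations from the class means correlated by 0.0947 to 0.741 over 7 comparisons, so the library as a block was an alternative. The floor for a count of 0 is 3 counts per library, and it covers counting error only. The edgeR test was tried on simulated sums of suprabasal squamous against basal cells, drawn without a shared pool. The other steps were not tried on simulated data.

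The members, lists and gates were chosen with earlier results of these data known. Named genes are the 9 members, the 3 pathway genes with the largest rise and fall past the threshold at a mean of 10 CPM, the 5 nearest genes of each member and the 8 leading genes each way of basal carriers, the last chosen after seeing the data; 1 further gene is not reported here. *Lrig1* was left out of its own comparison in the edgeR fits but not in the DESeq2 fit. p-values without a block set a difference against the spread between pools. Those with the library as a block set it against how the difference varies from pool to pool.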

Additional observations from a re-analysis of the deposited data

How the results depend on the processing

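The counts of called genes moved by more than 1.5 times under several settings. With the quality limits read as the supplement words them, 6581 genes were called for epithelial against fibroblast cells, 775 for secretory against basal cells and 125 for airway against squamous basal cells, the last 2 in fits of libraries 1 and 3, which gave 1160 and 2400 under the limits used here. With the library as a replicate block, these 2 comparisons gave 5244 and 6729, and *Lrig1*+ against *Lrig1*- basal cells 1855, while DESeq2 gave 124 and no filter on low counts 2 for the latter. Thinned to 5000 UMIs, secretory against basal cells gave 1662, secretory against suprabasal cells 4292 and airway against squamous basal cells 2167, and airway basal in place of all basal cells gave 1750 for secretory cells. Leaving out 1 library gave 8074 to 11690 genes for epithelial against fibroblast cells, 4323 to 7273 for epithelial against immune, 1915 to 4423 for suprabasal against basal, 767 to 2349 for secretory against basal, 3813 to 5459 for secretory against suprabasal and 842 to 2863 for airway against squamous basal cells. The causes were not tested, beyond fewer cells or libraries in some of these fits.

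Among the members, 14 values changed sign. *Il1r2* was between −0.040 (without library 1) and 1.02 against fibroblasts with 1 library left out and 1.34 against macrophage-gated cells. In suprabasal against basal cells, *Il1r1* was 0.030 with basal-marked cells left out, *Il1rap* 0.13 with squamous basal cells alone, and *Il33* −0.092 with the block, −0.048 by DESeq2, −0.68 (without library 3) to 0.34 with 1 library left out and −0.65 with squamous basal cells alone. In secretory against basal cells, *Il1rn* was 0.13 and *Il18* 0.59 with airway basal cells alone, and *Il18* was 0.37 with basal-marked cells left out. Between *Lrig1*+ and *Lrig1*- basal cells, *Il18* was −0.071 (without library 2) to 0.22 with 1 library left out and −0.053 thinned, and *Il33* was −0.13 under the supplement's wording. The cause was not tested. *Il1r2*, *Il1r1* and *Il1rn* against basal cells passed once basal-marked secretory cells were left out. Of the other values, 422 kept their direction and side of the threshold, 42 kept the direction and lost the threshold and 21 gained it.

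*Il18* in immune cells was 40.6 CPM thinned to 2000 UMIs, against 60.6 CPM. The excess of *Il1r2* among cells with *Il1rn* was 5.80 points without thinning and 5.58 with doublets kept. The block changed no other member's call than *Il1r2* and *Il1rn* in secretory and *Il1r2* and *Il33* in *Lrig1*+ against *Lrig1*- cells. The comparisons with part of a class (macrophage, airway or squamous basal, and basal-marked cells left out) were chosen after seeing the data. The supplement's wording was not run where fewer than 2 libraries kept 20 cells: epithelial against immune, suprabasal against basal and secretory against suprabasal cells. *Il1a*, *Il1b* and *Il1rl1* in the epithelium lie near 3 UMIs per library, which limits any statement on them.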

Other observations

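Small epithelial classes of the sort carried members at their own levels. Thyroid-gated cells, 43 and 28 in the libraries with at least 20, had 115 and 142 CPM of *Il1r1*, above the 75.2 to 78.1 CPM of basal cells, and neuroendocrine cells had 0.873 and 5.64 CPM in the same libraries. Neuroendocrine cells had 34.1 and 35.2 CPM of *Il18*, beside 3.31 to 3.85 CPM in basal cells, and 17.4% and 14.8% of them had a UMI after thinning to 5000 UMIs. Mural cells had 89.6 and 38.4 CPM of *Il1r1* in libraries 1 and 3 and no UMI of *Il1rn*, *Il1r2* or *Il33*.

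For each member, the genes with the most similar levels across 9 classes (5 epithelial, 3 stromal and the macrophage gate) were listed by the mean Pearson r of log2(CPM + 1) over libraries, as a description of shared pattern with classes that share library and depth. *Il1rn* was closest to *Susd1* (0.939), *Cstb* (0.938), *Ola1* (0.937), *Gna15* (0.923) and *Eif5a* (0.923), and *Il1r2* to *Anln* (0.890), *Igfbp2* (0.874), *Aknad1* (0.861), *Ltb4r2* (0.859) and *Paox* (0.854). *Il1r1* was closest to *Igfbp7* (0.935), *Prss23*, *Foxc1*, *Ablim1* and *Zfp532*, *Il1rap* to *Vkorc1* (0.891), *Dram1*, *Chd9*, *Mmp14* and *Gaa*, and *Il33* to *Slit3* (0.904), *Aldh1a3*, *Col23a1*, *Nlgn1* and *Nkd2*. *Il18* was closest to *Metrnl* (0.894), *Pfkfb4*, *Slc16a10*, *Atp6ap2* and *Msrb1*. For the immune members, *Il1a* was closest to *Bin2* (0.996), *Dnase1l3*, *Tlr7*, *Pld4* and *Cd52*, *Il1b* to *Gm36161* (0.999), *Slamf9*, *Ccl3*, *Clec4n* and *Ccr1*, and *Il1rl1* to *Tfec* (0.999), *Gm2629*, *Tifab*, *Gm53692* and *Ly86*. The macrophage gate is the one class of the 9 where these 3 members reach 10 CPM.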
